A study of Mus musculus with 12 samples.

Results

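Il2ra, Socs2 and Cish, the genes of CD25 and of a pair of feedback inhibitors of STAT5 signalling, were followed through poly(A) RNA sequencing of CD4 T cells sorted from the spleens of C57BL/6 mice. They were chosen by name as a readout of IL-2 signalling, with earlier results of these data known. They are 3 of the 13404 genes in the deposited count table, and all 3 passed the filter on low counts. The 6 groups, with 2 libraries each, were Treg from mice of 2 months labelled Dcaf1-deficient, Treg from wild-type mice of over 18 months (aged), Treg from wild-type mice of 2 months (young), and Tconv from the same 3 kinds of mice. Treg (regulatory T cells, which restrain immune responses) were sorted as CD4+CD25+ and Tconv (conventional T cells) as CD4+, with no CD25 gate given for Tconv. The sources used here do not give the Dcaf1 allele, a Cre driver, or whether the 2 libraries of a group came from separate mice, so p-values measure the spread between libraries, which may be technical.

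IL-2 binds a receptor of which CD25, the alpha chain, gives high affinity, and the kinases JAK1 and JAK3 then activate the transcription factor STAT5. STAT5 raises transcription of Il2ra itself and of Socs2 and Cish, whose protein products, SOCS2 and CIS, dampen cytokine signalling. Treg make little IL-2, carry much CD25 and depend on IL-2 made by other T cells.

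Il2ra lies on mm10 chromosome 2, bases 11642807 to 11693193, on the plus strand, with up to 8 exons in GENCODE M21. Socs2 lies on the minus strand of chromosome 10, bases 95385362 to 95417180, and Cish on the plus strand of chromosome 9, bases 107296026 to 107302784. Cish overlaps the pseudogene Gm17040 and the antisense gene Gm17041, both on the minus strand, and use of strand in the counting is not given in the sources used here, so reads of Cish and of these genes cannot be told apart. Il2ra overlaps Gm37881, a gene model on its own strand, with the same limit. Dcaf1, named Vprbp in the table, ends 415 kb before Cish on the same chromosome, with 2 protein-coding genes between them.

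The promoters of Il2ra and Cish are shown because both genes are known STAT5 targets, and the palindrome TTCNNNGAA, which reads the same on both strands, is the core of STAT sites. The sequences are from RefSeq (GRCm38.p6, the build of mm10), plus strand, from 250 bases before the RefSeq transcription start to 30 bases after it, at chr2:11642542-11642821 for Il2ra and chr9:107296409-107296688 for Cish. The RefSeq start of Cish, base 107296659, lies 633 bases inside the gene as GENCODE M21 draws it, so the Cish window is the promoter of the RefSeq transcript only. Capitals mark matches to TTCNNNGAA.
Il2ra: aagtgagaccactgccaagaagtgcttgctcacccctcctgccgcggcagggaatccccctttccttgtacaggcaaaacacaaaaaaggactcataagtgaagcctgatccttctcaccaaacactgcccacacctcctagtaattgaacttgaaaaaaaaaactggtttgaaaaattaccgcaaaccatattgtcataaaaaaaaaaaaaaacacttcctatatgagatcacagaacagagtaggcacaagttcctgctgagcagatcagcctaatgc
Cish: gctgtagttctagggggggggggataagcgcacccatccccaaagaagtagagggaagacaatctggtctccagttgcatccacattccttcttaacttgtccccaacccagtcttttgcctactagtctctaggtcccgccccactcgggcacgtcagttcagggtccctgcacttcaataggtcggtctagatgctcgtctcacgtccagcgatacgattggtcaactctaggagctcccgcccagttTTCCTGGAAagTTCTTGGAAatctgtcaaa
The 250 bases before the start held 0 matches in Il2ra and 0 in Cish, against at least 1 match in 7.02% of the 32851 promoters of the table. The window was lengthened past the start after the Cish sequence had been seen. In the 280 bases it then covered, Cish held 2 matches, TTCCTGGAA from base 1 of the RefSeq transcript and TTCTTGGAA from base 12, and Il2ra held 0. At least 2 matches stood in 0.408% of promoters of that length. A match is a description of the letters, and binding was not measured here.

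Library totals ranged from 18358477 to 26852448 estimated counts, at which 3 counts equal at most 0.167 CPM. Levels are CPM, counts relative to the library size scaled by TMM, and a fold change is log2 of the first named group over the second, with the standard error (SE) of the fit. A gene was called where the Benjamini-Hochberg adjusted p of edgeR's quasi-likelihood test over 9495 genes was under 0.05. Dcaf1 had 102 and 101 CPM in Treg labelled Dcaf1-deficient, against 144 and 128 CPM in young Treg. In Tconv it had 132 and 132 CPM in the libraries labelled Dcaf1-deficient, against 147 and 144 CPM in the young, and a gene-level count cannot show whether some exons were deleted. T cell markers were present in every library, with 10 of 13 measured and a summed level of 3054 to 10839 CPM. Macrophage markers (8 of 10 measured) summed to 10481 and 12514 CPM in Treg labelled Dcaf1-deficient, 8792 and 584 in aged Treg and 120 and 3427 in young Treg. B cell markers (7 of 8 measured) summed to 2320 and 2400, 1963 and 119, and 83.7 and 2537 CPM in the same libraries, and erythroid markers (8 of 11 measured) to 5371 and 12116, 4568 and 152, and 76.3 and 1617 CPM. Young Treg 1 and aged Treg 2 thus stood apart from the other 4 Treg libraries by low levels of all 3 lists. In Tconv the sums were 18.4 to 937 CPM for macrophage, 42.5 to 390 for B cell and 12.9 to 1517 for erythroid markers. Over all libraries, NK cell markers (3 of 5 measured) summed to 6.64 to 89.5 CPM, dendritic cell markers (3 of 5) to 3.96 to 337 and neutrophil markers (8 of 9) to 0.188 to 547, with Mpo and S100a8 at 0 in some libraries, while 0 of 2 CD8 T cell markers were measured. In bulk RNA, fewer cells of a type and less RNA per cell cannot be told apart.

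Il2ra, the sorting marker, was higher in every Treg library than in every Tconv library, so its difference checks the sort. Treg labelled Dcaf1-deficient had 774 and 576 CPM, aged Treg 763 and 969 CPM and young Treg 1337 and 887 CPM. Tconv labelled Dcaf1-deficient had 49.2 and 48.7 CPM, aged Tconv 43.1 and 29.7 CPM and young Tconv 31.8 and 63.2 CPM. The log2 fold change of Treg over Tconv was 3.79 in mice labelled Dcaf1-deficient (SE 0.39, edgeR adjusted p 0.0112), 4.57 in aged mice (SE 0.41, edgeR adjusted p 0.00543) and 4.55 in young mice (SE 0.41, edgeR adjusted p 0.00602).

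Socs2 encodes a substrate adaptor that brings proteins such as the growth hormone receptor to a Cullin 5 ubiquitin ligase. It had 87.2 and 64.3 CPM in Treg labelled Dcaf1-deficient, 85.6 and 91.8 in aged Treg and 104 and 69.0 in young Treg. In Tconv it had 24.1 and 22.4 CPM in the libraries labelled Dcaf1-deficient, 16.2 and 10.9 in aged Tconv and 6.62 and 16.7 in young Tconv. Every Treg library thus lay above every Tconv library, while the 3 Treg groups overlapped one another. The log2 fold change of Treg over Tconv was 2.71 in aged mice (SE 0.44, edgeR adjusted p 0.0417) and 2.90 in young mice (SE 0.44, edgeR adjusted p 0.0362), both called. In mice labelled Dcaf1-deficient it was 1.70 (SE 0.42, edgeR adjusted p 0.0716) and was not called.

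Cish encodes CIS, an SH2 protein that binds activated cytokine receptors. It had 297 and 245 CPM in Treg labelled Dcaf1-deficient, 295 and 654 in aged Treg and 372 and 241 in young Treg. In Tconv it had 93.9 and 89.1 CPM in the libraries labelled Dcaf1-deficient, 91.1 and 103 in aged Tconv and 39.6 and 40.4 in young Tconv. All 6 Treg libraries lay above all 6 Tconv libraries, and within Tconv the young pair lay below the other 4 libraries. Of all tested genes, 34.2% lay above young Tconv without overlap in Tconv labelled Dcaf1-deficient and 29.9% in aged Tconv. The share that did both was not computed, so the pattern in Tconv has no joint background. The log2 fold change of Treg over Tconv was 2.29 in aged mice (SE 0.36, edgeR adjusted p 0.0402) and 2.94 in young mice (SE 0.37, edgeR adjusted p 0.0248), both called. In mice labelled Dcaf1-deficient it was 1.57 (SE 0.35, edgeR adjusted p 0.0613) and was not called.

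**Figure D1:**
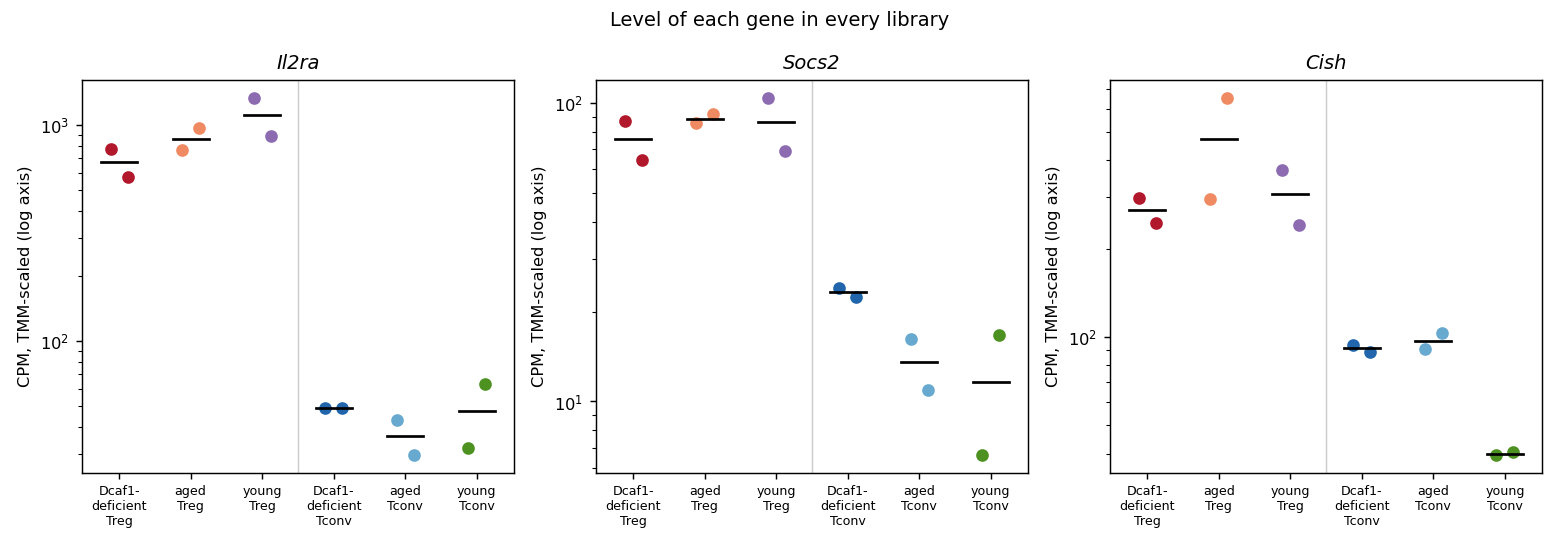
CPM (TMM-scaled, log axis) of Il2ra, Socs2 and Cish in each of 12 libraries; points are libraries and bars are group means. All 6 Treg libraries sit above all 6 Tconv libraries for each gene, and for Cish the young Tconv pair, at 39.6 and 40.4 CPM, sits below the other Tconv libraries. The share of all genes with that pattern in Tconv was not computed.

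Apart from the sorting marker Il2ra, both feedback genes were thus called higher in Treg in aged mice, where 0.295% of tested genes were called higher, and in young mice, where 0.495% were. In mice labelled Dcaf1-deficient 0 of these 2 were called, where 0.874% of tested genes were. Whether the feedback genes' difference between cell types was unlike between kinds of mice is given by the interactions with young mice. Within the mice labelled Dcaf1-deficient, both Treg libraries carry the title tag L4 and both Tconv libraries L5, so tag and cell type cannot be told apart there. With a term for the tag over all 12 libraries the log2 fold change was 4.74 for Il2ra (edgeR adjusted p 0.0216), 2.81 for Socs2 (edgeR adjusted p 0.0763) and 1.91 for Cish (edgeR adjusted p 0.170). Over the mean of the 3 cell type differences the log2 fold change was 4.30 for Il2ra (SE 0.23, edgeR adjusted p 0.000245), 2.44 for Socs2 (SE 0.25, edgeR adjusted p 0.00212) and 2.26 for Cish (SE 0.21, edgeR adjusted p 0.00141), where 11.5% of genes were called higher. Libraries lay higher in Treg without overlap, as for all 3 genes, in 39.5% of tested genes in mice labelled Dcaf1-deficient, 15.7% in aged and 24.4% in young mice, and in 5.74% in each of the 3 comparisons. EdgeR calls in all 3 covered 0.0737% of genes, which Il2ra, as the gene sorted on, met and Socs2 and Cish did not. In 1.89% of tested genes every Treg library lay above every Tconv library, and all 3 genes were among them.

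The calls of Socs2 and Cish within 1 kind of mouse stood close to the threshold, while that of Il2ra in aged mice held without each of the 12 libraries in turn (edgeR adjusted p at most 0.0249). Leaving out 1 of the 12 libraries ended the call of Socs2 in 8 cases in young mice and 6 in aged mice, of Cish in 7 and 8 cases, and of Il2ra in 2 cases in young mice and 4 in mice labelled Dcaf1-deficient, and the adjusted p then reached 0.227. For Socs2 these were each of the 4 libraries labelled Dcaf1-deficient and each of the 4 young libraries (young mice), and each of the 4 labelled Dcaf1-deficient, aged Tconv 2 and aged Treg 1 (aged mice). For Cish they were the 4 labelled Dcaf1-deficient, either young Tconv and young Treg 1 (young mice), and the 4 labelled Dcaf1-deficient and every aged and young Tconv library (aged mice). For Il2ra they were either young Tconv library in young mice and each of the 4 libraries compared in mice labelled Dcaf1-deficient. In those mice Cish was called (1.56) when either aged Treg library was left out (edgeR adjusted p 0.0166 and 0.0169). The log2 fold changes stayed positive in all of these fits, between 2.41 and 3.72 for Socs2 in young mice and between 1.603 and 2.753 for Cish in aged mice. A fit of only the 4 libraries compared ended the calls in young mice (edgeR adjusted p 0.0645 to 0.135) and in aged mice (edgeR adjusted p 0.413 to 0.549), and called Socs2 and Cish in mice labelled Dcaf1-deficient (edgeR adjusted p 0.000382 and 9.69e-05).

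**Figure D2:**
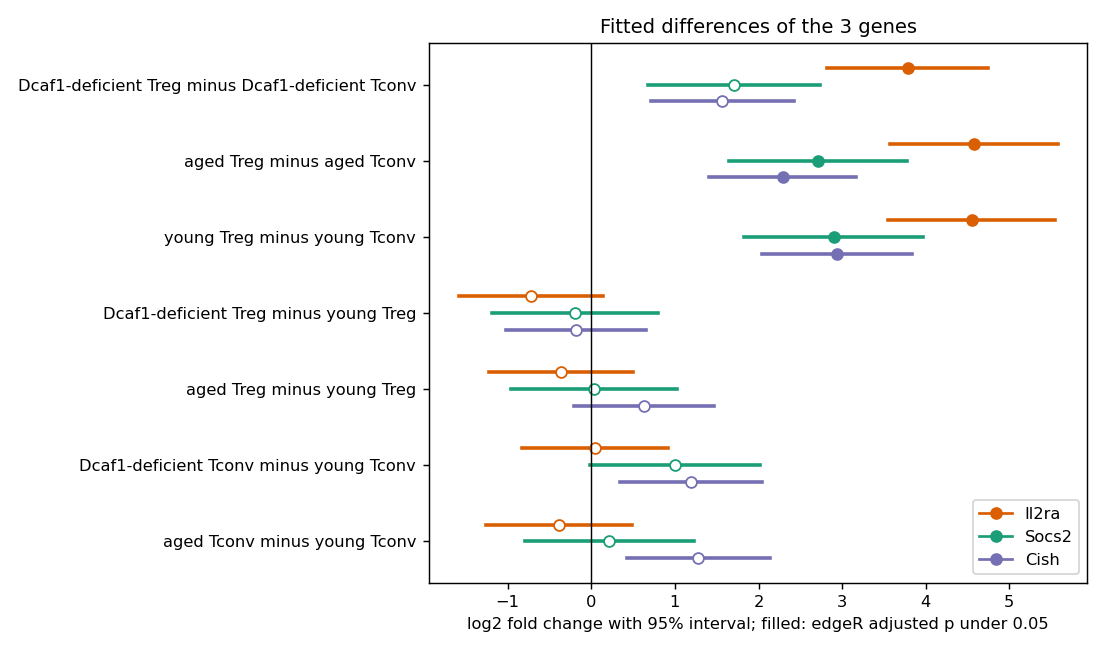
Log2 fold changes of the 3 genes by comparison, with 95% intervals made from the SE of the edgeR fit on 6 degrees of freedom. Filled points have an adjusted p under 0.05. The cell type differences lie between 1.57 and 4.57, and none of the differences from young mice is filled.

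Between Treg labelled Dcaf1-deficient and young Treg, Il2ra was the 1 gene of the 3 whose libraries did not overlap, with 774 and 576 CPM in the Treg labelled Dcaf1-deficient, against 1337 and 887 CPM in young Treg. Its log2 fold change was -0.72 (SE 0.35, edgeR adjusted p 0.239), and 36.9% of tested genes were lower without overlap in this comparison. Socs2 differed by -0.19 (SE 0.41, edgeR adjusted p 0.768) and Cish by -0.18 (SE 0.34, edgeR adjusted p 0.744), with overlapping libraries. The 95% intervals of these log2 differences, -1.19 to 0.80 for Socs2 and -1.01 to 0.66 for Cish, include changes of more than 1.5-fold either way. EdgeR called 0% of all genes here (2359 at an unadjusted p under 0.05), DESeq2 called 1154 and limma on the deposited log2 values 0, and neither called Il2ra, Socs2 or Cish. The summed T cell markers were 3398 and 3054 CPM in Treg labelled Dcaf1-deficient, against 7153 and 4830 CPM in young Treg. Scaled to those markers, the log2 fold changes were 0.17 for Il2ra, 0.69 for Socs2 and 0.72 for Cish, none called, while the median of all genes moved to 0.83, so that all 3 stayed below the median gene. With a term in the fit for macrophage, B cell or erythroid markers, Cish was at 0.42, 0.23 and 0.56 and Il2ra at -0.72, -0.63 and -0.64, none called.

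Between aged and young Treg none of the 3 genes separated the groups. Il2ra differed by -0.36 (SE 0.35, edgeR adjusted p 0.615), Socs2 by 0.03 (SE 0.41, edgeR adjusted p 0.974) and Cish by 0.63 (SE 0.34, edgeR adjusted p 0.369). For Cish the value rested on aged Treg 2, at 654 CPM against 295 CPM in aged Treg 1, and without it the log2 fold change was -0.06 (edgeR adjusted p 0.906). Aged Treg 2 is also the Treg library with the highest Foxp3, the lineage factor of Treg, at 1986 CPM against 746 CPM in aged Treg 1, and the only Treg library whose title carries the tag L3, whose meaning is not stated. With a term for the tag the log2 fold change of Cish was 0.11 (edgeR adjusted p 0.884), and with terms for macrophage, B cell and erythroid markers it was 0.83, 0.56 and 0.82, none called. The part of Treg content in it was not tested. EdgeR called 0% of all genes (1697 at an unadjusted p under 0.05), DESeq2 called 7.47% of them and limma 2 genes, and none of the 3 genes was called by any of them.

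In Tconv, Cish lay above both young libraries in the libraries labelled Dcaf1-deficient and in the aged, and Socs2 did so in those labelled Dcaf1-deficient. Cish stood at 93.9 and 89.1 CPM in Tconv labelled Dcaf1-deficient, against 39.6 and 40.4 CPM in young Tconv, a log2 fold change of 1.19 (SE 0.35, edgeR adjusted p 0.421), which was not called. Libraries lay higher without overlap in 34.2% of tested genes in this comparison, and edgeR called 0% of genes (954 at an unadjusted p under 0.05), DESeq2 216 and limma 11. DESeq2 called Cish (adjusted p 0.0318), as did edgeR with only the 4 libraries compared (adjusted p 0.00469). Socs2 stood at 24.1 and 22.4 CPM in Tconv labelled Dcaf1-deficient, against 6.62 and 16.7 CPM in young Tconv, a log2 fold change of 1.00 (SE 0.42, edgeR adjusted p 0.484), without overlap and not called. With a term for the tag, which is L5 in both Tconv libraries labelled Dcaf1-deficient and L4 and L5 in young Tconv, Cish was at 1.01 (edgeR adjusted p 0.416) and Socs2 at 0.59 (edgeR adjusted p 0.502). Without young Tconv 1 the value of Socs2 was 0.49, and without young Tconv 2 it was 1.81. Il2ra differed by 0.04 (SE 0.35, edgeR adjusted p 0.973).

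Beside these values, erythroid markers summed to 1517 and 1513 CPM in Tconv labelled Dcaf1-deficient, against 12.9 and 124 CPM in young Tconv, and macrophage markers to 880 and 937 CPM, against 18.4 and 231 CPM. With a term for the erythroid markers in the fit the log2 fold change of Cish was 1.89 (edgeR adjusted p 0.0608), and with a term for the macrophage markers 1.73 (edgeR adjusted p 0.291). Neither marker sum overlapped between these groups, so such fits cannot separate the markers from the label. Treg markers, 5 of 7 measured, summed to 460 and 429 CPM in Tconv labelled Dcaf1-deficient, against 395 and 445 CPM in young Tconv, groups that overlapped.

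Cish stood at 91.1 and 103 CPM in aged Tconv, against 39.6 and 40.4 CPM in young Tconv. Its log2 fold change was 1.28 (SE 0.35, edgeR adjusted p 0.0588), just outside the threshold, where 6.38% of genes were called higher, 2.47% lower, and 29.9% lay higher without overlap. DESeq2 called it (adjusted p 0.00297), and leaving out either aged Treg library gave edgeR adjusted p-values of 0.0121 and 0.0126. Il2ra differed by -0.38 (SE 0.36, edgeR adjusted p 0.512) and Socs2 by 0.22 (SE 0.41, edgeR adjusted p 0.758), both with overlap. Treg markers summed to 2311 and 3481 CPM in aged Tconv, against 395 and 445 CPM in young Tconv, and Foxp3 was called higher (log2 fold change 3.002, SE 0.56, edgeR adjusted p 0.0248). The sorting marker Il2ra was at 43.1 and 29.7 CPM in those aged libraries, against 31.8 and 63.2 CPM in the young. The part of Treg transcripts in the Cish value was not tested. With a term for macrophage, B cell or erythroid markers Cish was called (1.19, 1.28 and 1.37; edgeR adjusted p 0.0302, 0.0134 and 0.0069), and with a term for the title tag, which only aged Tconv 2 has as L3 among Tconv, it was at 0.86 (edgeR adjusted p 0.197).

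Whether the difference from young mice was unlike in Treg and Tconv was tested as an interaction. For Cish the label difference in Treg minus that in Tconv was -1.37 (SE 0.49, unadjusted p 0.0224, edgeR adjusted p 1.00), and the age difference in Treg minus that in Tconv was -0.65 (SE 0.48, edgeR adjusted p 0.930). For Socs2 the values were -1.19 (SE 0.58, edgeR adjusted p 1.00) and -0.18 (SE 0.58, edgeR adjusted p 0.995), and for Il2ra -0.76 (SE 0.50, edgeR adjusted p 1.00) and 0.02 (SE 0.50, edgeR adjusted p 1.00). EdgeR called 0% of genes in both, with 260 genes at an unadjusted p under 0.05 for the label and 615 for age, against 1 and 130 called by DESeq2 and 0 and 1 by limma. The comparisons with young mice share the young libraries.

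By mean CPM, Il2ra was highest in young Treg (1112 ± 319 CPM), then aged Treg (866 ± 146), Treg labelled Dcaf1-deficient (675 ± 140), Tconv labelled Dcaf1-deficient (48.9 ± 0.340), young Tconv (47.5 ± 22.2) and aged Tconv (36.4 ± 9.51; SD, n = 2 each). The 1 gap between neighbours without overlap was that between the cell types. Socs2 was highest in aged Treg (88.7 ± 4.42 CPM), then young Treg (86.6 ± 24.9), Treg labelled Dcaf1-deficient (75.7 ± 16.2), Tconv labelled Dcaf1-deficient (23.2 ± 1.15), aged Tconv (13.5 ± 3.73) and young Tconv (11.6 ± 7.11). Cish was highest in aged Treg (474 ± 254 CPM), then young Treg (307 ± 92.5), Treg labelled Dcaf1-deficient (271 ± 36.6), aged Tconv (97.1 ± 8.45), Tconv labelled Dcaf1-deficient (91.5 ± 3.40) and young Tconv (40.0 ± 0.572). Besides the gap between cell types, neighbours did not overlap between Tconv labelled Dcaf1-deficient and aged Tconv for Socs2 and between Tconv labelled Dcaf1-deficient and young Tconv for Cish. In the second of these comparisons 34.2% of tested genes lay higher without overlap. For the first that share was not computed, so the gap of Socs2 has no background.

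Ratios between the genes within a library do not depend on library scaling, and their size depends on transcript lengths, so they were compared between libraries only. Socs2 relative to Il2ra was 0.113 and 0.112 in Treg labelled Dcaf1-deficient, 0.112 and 0.0948 in aged Treg and 0.0780 and 0.0779 in young Treg. In Tconv it was 0.490 and 0.461 in the libraries labelled Dcaf1-deficient, 0.376 and 0.369 in aged Tconv and 0.211 and 0.265 in young Tconv. Within each cell type, the aged libraries and those labelled Dcaf1-deficient thus all lay above the young. Cish relative to Il2ra did the same, at 0.384 and 0.425 in Treg labelled Dcaf1-deficient, 0.386 and 0.675 in aged Treg and 0.278 and 0.272 in young Treg. In Tconv that ratio was 1.91 and 1.83 in the libraries labelled Dcaf1-deficient, 2.11 and 3.47 in aged Tconv and 1.24 and 0.639 in young Tconv. These ratios are given without a test, since Il2ra is the sorting marker, and they were set beside all genes after they had been seen. Of 9494 genes, 66% lay higher relative to Il2ra without overlap in Treg labelled Dcaf1-deficient than in young Treg and 30.8% in aged Treg. The shares were 17.9% in Tconv labelled Dcaf1-deficient and 19.9% in aged Tconv, and 5.03% of genes, Socs2 and Cish among 478, did so in all 4 comparisons.

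**Figure D3:**
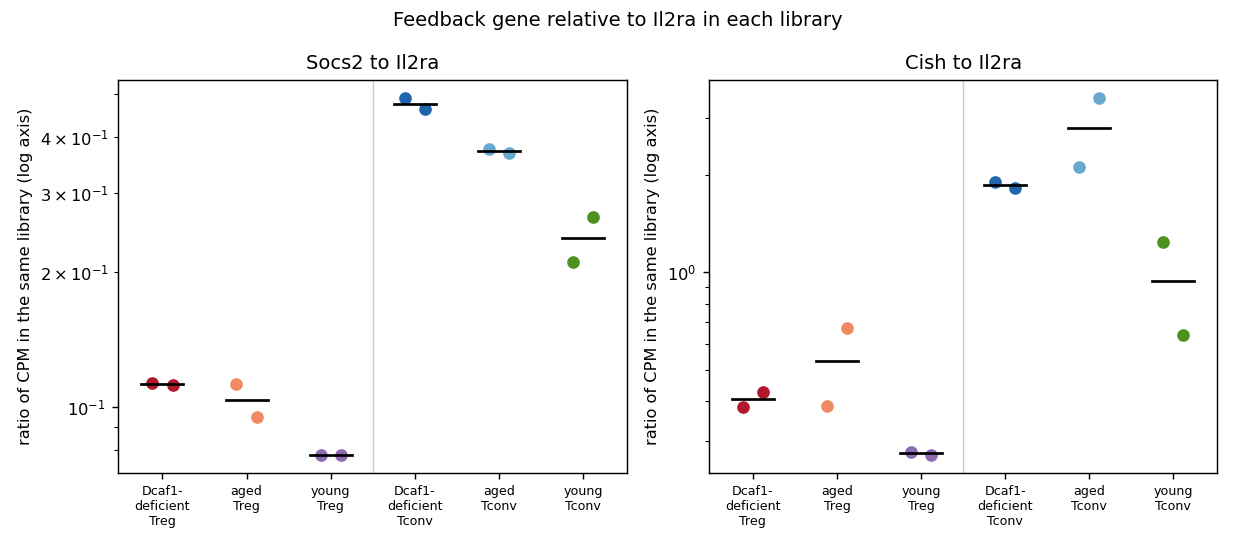
Ratio of Socs2 to Il2ra (left) and of Cish to Il2ra (right) in each library (CPM over CPM, log axis); points are libraries and bars are group means. In both cell types the young libraries, at 0.0780 and 0.0779 for Socs2 in Treg, sit below the aged libraries and those labelled Dcaf1-deficient.

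Cish relative to Socs2 did not separate the cell types. The log2 ratio averaged 1.99 ± 0.42 over Treg libraries and 2.25 ± 0.67 over Tconv libraries (SD, n = 6 each), a difference of -0.26 (two-sided exact permutation p 0.437, where 0.00216 is the smallest p possible). Across the 6 Treg libraries, log2 CPM of Il2ra and Socs2 correlated with Pearson r 0.78 and Spearman rho 0.83 (exact permutation p 0.0611 and 0.0583; Pearson p 0.258 adjusted over 6 relations). Across the 6 Tconv libraries r was 0.75 and rho 0.77 (exact permutation p 0.0861 and 0.103; Pearson p 0.258 adjusted over 6 relations). Without the 2 libraries farthest from the median of Il2ra, r was -0.06 in Treg and -0.17 in Tconv. Leaving out the extremes narrows the range of Il2ra, so this cannot show whether the relations rested on those libraries. The other 4 relations had r from -0.18 to 0.66, with adjusted exact permutation p-values from 0.272 to 0.714.

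Because T cell markers varied between libraries, the genes were also set against the summed counts of those 10 markers, a measure chosen after the levels had been seen. Per 100 marker counts, Cish had 8.74 and 8.02 counts in Treg labelled Dcaf1-deficient, 7.76 and 7.94 in aged Treg and 5.203 and 4.996 in young Treg. In Tconv it had 1.18 and 1.12 in the libraries labelled Dcaf1-deficient, 0.999 and 0.950 in aged Tconv and 0.463 and 0.512 in young Tconv. On this scale the young pair was the lowest in both cell types. Over all tested genes, 84.4% lay higher without overlap on this scale in Treg labelled Dcaf1-deficient than in young Treg, 13% in aged Treg, 36.3% in Tconv labelled Dcaf1-deficient and 18% in aged Tconv, and 5.23% did so in all 4. Il2ra had 22.8 and 18.9 counts per 100 in Treg labelled Dcaf1-deficient, 20.1 and 11.8 in aged Treg and 18.7 and 18.4 in young Treg, and Socs2 had 2.57 and 2.10, 2.25 and 1.11, and 1.46 and 1.43 in the same libraries. Counts per 100 marker counts were not compared between cell types, since markers such as Cd4 and Lck were themselves lower in Treg. Fold changes between cell types scaled to the markers are therefore given relative to the median gene. In the fit scaled to these markers Cish was called between aged and young Tconv (log2 fold change 1.00, edgeR adjusted p 0.0388), while the median gene moved to -0.27, and in none of the other 3 comparisons with young libraries.

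**Figure D4:**
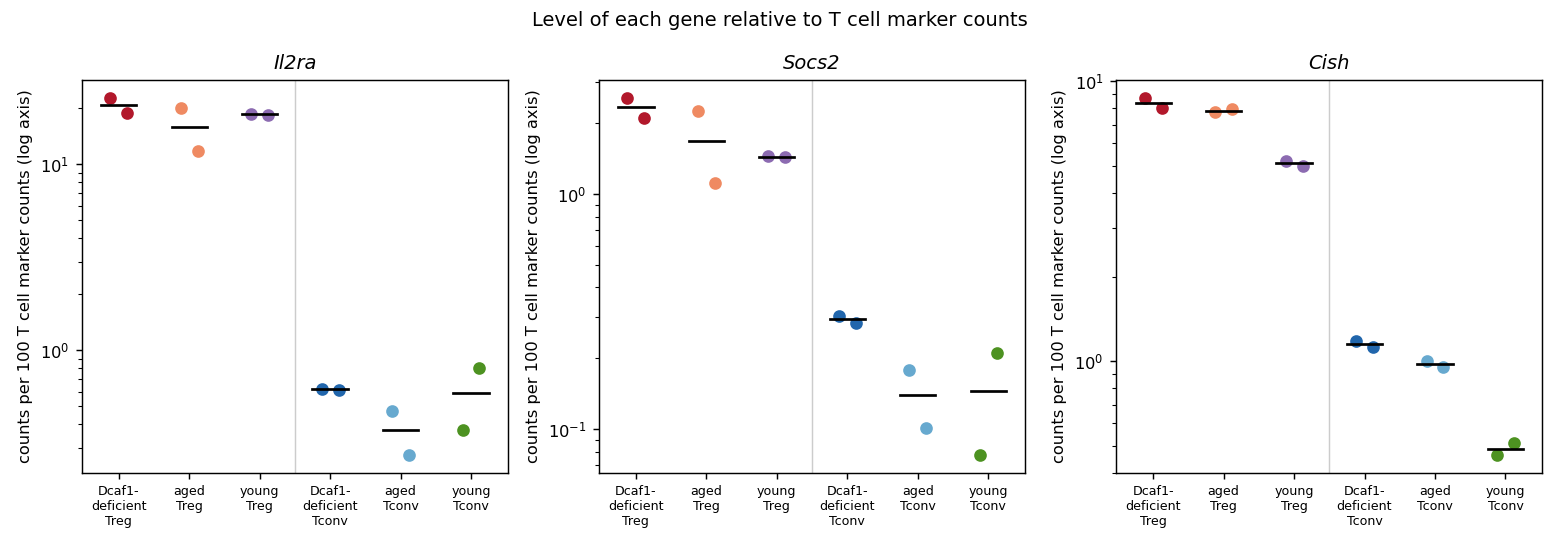
Counts of Il2ra, Socs2 and Cish per 100 summed counts of 10 T cell markers in each library (log axis); points are libraries and bars are group means. For Cish the young pair is the lowest in Treg, at 5.203 and 4.996, and in Tconv, at 0.463 and 0.512.

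Other genes that STAT5 is known to induce were described as a list of which 11 of 14 were tested. In Treg over Tconv, 2 were called higher in mice labelled Dcaf1-deficient, 1 in aged mice and 2 in young mice, where 0.874%, 0.295% and 0.495% of tested genes were, and 0 were called lower, where 1.35%, 0.527% and 0.305% of tested genes were. The list's median log2 fold change was -0.01, 0.61 and 0.90 in those comparisons, beside 0.02, -0.03 and 0.02 over all genes. Bcl2l1, which encodes the survival protein BCL-XL, was called in each, with 110 and 92.1 CPM in Treg labelled Dcaf1-deficient, 106 and 136 in aged Treg and 75.2 and 70.3 in young Treg. In Tconv it had 44.8 and 45.8 CPM in the libraries labelled Dcaf1-deficient, 28.8 and 30.2 in aged Tconv and 22.01 and 29.4 in young Tconv. Foxp3, itself a Treg marker, was called in mice labelled Dcaf1-deficient (log2 fold change 2.89, edgeR adjusted p 0.0461) and in young mice (4.15, edgeR adjusted p 0.0304). In all Treg over all Tconv, where 11.5% of tested genes were called higher, 5 of the list were, Bcl2l1, Foxp3, the growth regulator Myc (0.85), the cytokine gene Lta (1.29) and Prdm1 (1.17), which encodes the transcription factor BLIMP-1. The survival gene Bcl2 was not called, at -0.83 in mice labelled Dcaf1-deficient, -0.57 in aged and 0.70 in young mice. With young Treg 2 and aged Treg 1 left out, young Treg and aged Treg keep 1 library each in the fit of all groups. Counts of calls of this list from that fit are not given for any comparison, also where both groups compared keep 2 libraries.

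**Figure D5:**
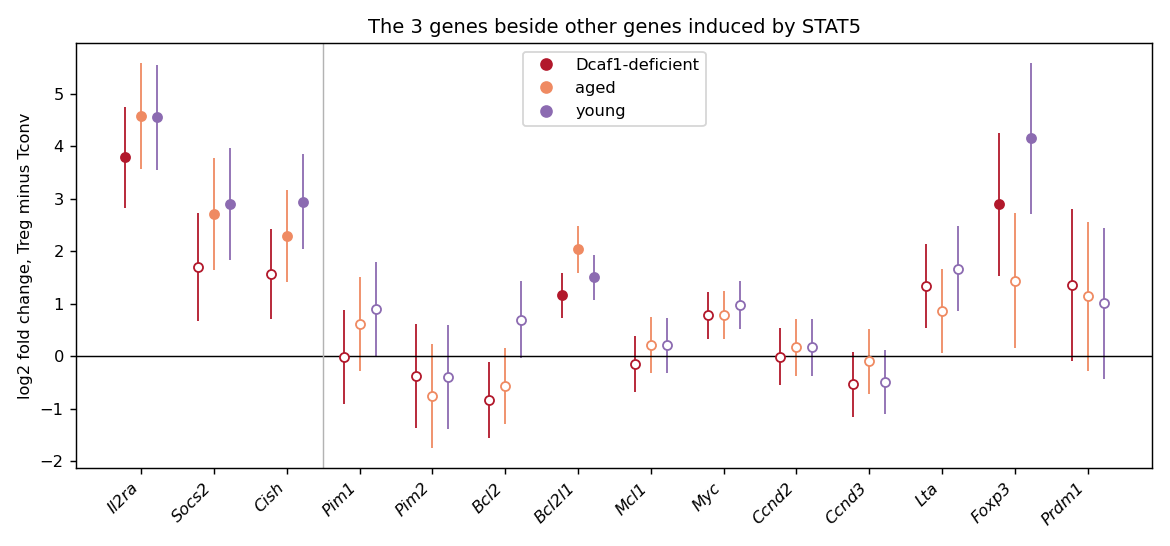
Log2 fold changes of Treg over Tconv with 95% intervals for Il2ra, Socs2 and Cish (left of the line) and for 11 other genes induced by STAT5, by kind of mouse; filled points have an edgeR adjusted p under 0.05. Bcl2l1 is the gene right of the line that is filled in all 3 kinds of mice.

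Against young mice, that list had 0 called genes in Treg, where edgeR called 0% of all genes in both comparisons. Counts of calls without young Treg 2 and aged Treg 1 are not given here either, since young Treg and aged Treg then keep 1 library each. The smallest adjusted p-values were those of Bcl2 (-1.83), Myc (-1.10) and Prdm1 (3.05) in aged Treg, at 0.126 each, and of Bcl2 (-1.41) and Myc (-0.74) in Treg labelled Dcaf1-deficient, at 0.131 each. In aged Tconv, Foxp3 (3.002) and Prdm1 (2.92) were called higher and Myc lower (-0.91). In Tconv labelled Dcaf1-deficient 0 were called, with Bcl2l1 at 0.82 (edgeR adjusted p 0.301) and Myc at -0.54 (edgeR adjusted p 0.453).

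Of the cytokines and receptor chains around CD25, 5 of 10 were tested. Il2, the gene of the ligand, was at 0.377 to 1.44 CPM in Treg and 1.19 to 2.84 CPM in Tconv, and was called lower in all Treg over all Tconv (log2 fold change -1.24, edgeR adjusted p 0.0346). Il2rg, which encodes the signalling gamma chain shared by IL-2 family receptors, was not called, with 780 to 1696 CPM in Treg and 943 to 1159 CPM in Tconv. Il15ra, the private chain of the IL-15 receptor, was called higher in aged over young Tconv (1.99, edgeR adjusted p 0.0248) and was not called in aged Treg (1.09, edgeR adjusted p 0.202). Il7, a cytokine, and Il9r, a receptor chain, were not called in any comparison. Scaled to T cell markers Il2 was not called, at -1.16 relative to the median gene of all Treg over all Tconv.

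Among the kinases and STATs, 10 of 13 were tested. Stat5a had 126 and 128 CPM in Treg labelled Dcaf1-deficient, 134 and 250 in aged Treg and 216 and 159 in young Treg, against 114 to 165 CPM in Tconv, and Stat5b had 293 to 539 CPM in Treg and 358 to 478 CPM in Tconv. Neither was called in any comparison. Jak1, the kinase bound by the beta chain, was called lower in Treg over Tconv in mice labelled Dcaf1-deficient (-0.82, edgeR adjusted p 0.0413), and in all Treg over all Tconv Jak1 (-0.54), Stat4 (-0.66) and the adaptor gene Shc1 (-0.22) were called lower, as were 11% of tested genes. Scaled to T cell markers, the median of all genes moved to 0.90, and relative to it Jak1 was at -0.55, Stat4 at -0.71 and Shc1 at -0.22. In mice labelled Dcaf1-deficient the median moved to 1.32, and Jak1 was at -0.84 relative to it. On the log2 scale itself these scaled values were above 0, at 0.35, 0.19, 0.68 and 0.48. Jak3, the kinase bound by the gamma chain, was at 653 and 673 CPM in aged Tconv, against 290 and 193 CPM in young Tconv (1.46, edgeR adjusted p 0.0579), and was not called.

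Of 14 other inhibitors of cytokine signalling, 9 were tested and 0 were called between Treg and Tconv in any kind of mouse. Ptpn1, which encodes the phosphatase PTP1B, was called higher in aged over young Tconv (0.81, edgeR adjusted p 0.0159). Scaled to T cell markers it was not called, at a log2 fold change of 0.53 (edgeR adjusted p 0.533), or 0.80 relative to the median gene. Socs3, a relative of Socs2 and Cish, was at -1.48 in aged Treg over aged Tconv (edgeR adjusted p 0.128) and 0.41 in young Treg over young Tconv (edgeR adjusted p 0.662), and Socs4 at -0.40 in Treg labelled Dcaf1-deficient over young Treg (edgeR adjusted p 0.164). The parts of the ligase that SOCS proteins join, Cul5, Tceb1 and Rnf7 (3 of 6 listed), were not called in any comparison, and their log2 fold changes between Treg and Tconv lay from -0.20 to 0.11. Of 5 genes that STAT5 is known to lower, 3 were tested. Bcl6, which encodes a transcriptional repressor that directs T follicular helper cells, was called lower in aged Treg over aged Tconv (-2.27, edgeR adjusted p 0.0473) and higher in aged over young Tconv (2.18, edgeR adjusted p 0.0232), and neither call held when scaled to T cell markers. The scaled log2 fold changes were -1.17 (edgeR adjusted p 0.144) and 1.87 (edgeR adjusted p 0.188), or -2.05 and 2.14 relative to the median gene. Il6st, the shared chain of IL-6 family receptors, was called lower in all Treg over all Tconv (-0.68, edgeR adjusted p 0.0316), and when scaled to T cell markers it was at -0.70 relative to the median gene.

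The genes most like each of the 3 were sought by Pearson correlation of log2 CPM over the 12 libraries among 8057 genes, a description dominated by the difference between cell types. For Il2ra they were Alpl, Socs2, Dnah7a, Dclk2 and Kcnj15 (r 0.955 to 0.962), and for Socs2 Arhgap18, Il2ra, Bcl2l1, Col15a1 and Dclk2 (r 0.946 to 0.973). Socs2 and Il2ra were thus each second among the genes most like the other. For Cish they were Gbp3, Aldh18a1, Pros1, Armcx4 and Gfpt2 (r 0.956 to 0.974), with Socs2 ranked 25 (r 0.919) and Il2ra 38 (r 0.896). Over the 6 Treg libraries the lists were others, with Rbm12, Pds5a, Acot2, Socs4 and Appbp2 for Il2ra (r 0.989 to 0.995), Fam53b, Lin9, Trim45, Papd7 and Slc25a20 for Socs2 (r 0.966 to 0.983) and Wnk1, Syap1, Ptger4, Snhg5 and Panx1 for Cish (r 0.992 to 0.995). There Socs2 ranked 1558 of 8057 for Il2ra and Il2ra 138 for Socs2, at the same r of 0.78. Over the 6 Tconv libraries the genes most like Socs2 were Prr5l, Cd40, Slamf7, Gtf2b and the erythroid marker Hbb-bs (r 0.977 to 0.996), genes named after their values were seen. With a term for erythroid markers, Socs2 was at 0.94 in Tconv labelled Dcaf1-deficient over young Tconv (edgeR adjusted p 0.502). Erythroid markers were higher in both of those labelled libraries than in both young ones, so this fit cannot separate them from the label.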

How the data were processed

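Poly(A) RNA was sequenced from 12 libraries of sorted spleen T cells. Per the submitters' processing notes, reads were quantified with Salmon 0.9.1 on mm10, and the authors deposited gene-level estimated counts, not normalized. A second deposited table holds log2 values scaled with DESeq2, whose transform is not given in the sources used here. Estimated counts were rounded and tested in R 4.3.3 with edgeR 4.0.16 (quasi-likelihood test, TMM, filterByExpr, which removed 1991 genes) in 1 fit of 6 group means with 6 residual degrees of freedom. Adjustment (Benjamini-Hochberg) ran over 9495 genes in each comparison. Log2 CPM had a prior count of 2. Exact permutation tests used scipy 1.17.1. Alternatives were RLE size factors, no filter, DESeq2 1.42.0, limma 3.58.1 on the deposited log2 values, only the groups compared, a replicate block, terms for title tag and markers, scaling to T cell markers, and leaving out libraries. The 3 genes and the gene lists were chosen with earlier results of these data known. From the lists, the text names called genes and genes among the 2 smallest adjusted p of a list in a comparison; values of Bcl2, Il2rg, Stat5a, Stat5b, Jak3 and Socs3 beyond these were added after they were seen. Most alike genes had a mean of at least 4 CPM in a group, without receptor segments and unnamed genes. Listed genes without a value were not analysed here. The test was tried on simulated data.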

Additional observations from a re-analysis of the deposited data

How the results depend on the processing

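In all Treg over all Tconv, Il2ra, Socs2 and Cish were called under every alternative that gave a value, with log2 fold changes of 3.13 to 5.16, 1.78 to 3.31 and 1.62 to 3.09 besides leaving out libraries. Groups of 2 limit the rest, and the causes of the changes below were not tested unless the setting states them.

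With only the groups compared, no longer called were Il2ra (4.62), Socs2 (2.77) and Cish (2.33) in aged Treg over aged Tconv and Il2ra (4.57), Socs2 (2.91) and Cish (2.96) in young Treg over young Tconv, in fits of 4 libraries. That setting called Socs2 (1.69) and Cish (1.56) in Treg over Tconv labelled Dcaf1-deficient and Cish (1.20) in Tconv labelled Dcaf1-deficient over young Tconv. Deviations of same-numbered libraries correlated at 0.68 between Treg and Tconv of young mice, 0.27 in aged mice and 0.04 in mice labelled Dcaf1-deficient. Over all pairs of groups the correlations ran from -0.66 to 0.68. Whether Treg and Tconv of the same number came from the same mice is not stated, and the main fit did not pair libraries by these numbers. With them as a replicate block, Socs2 (2.72) and Cish (2.28) in aged and Socs2 (2.88) in young Treg over Tconv lost their calls (edgeR adjusted p 0.0650, 0.0650 and 0.0614), and genes called fell to 50 of 78 and 40 of 76.

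In Treg over Tconv labelled Dcaf1-deficient, Cish was called by DESeq2 (1.61), limma on deposited values (1.17) and scaling to T cell markers (2.86). It was also called with terms for B cell (2.03), erythroid (1.92) and macrophage markers (2.07). Socs2 was called there by DESeq2 (1.74), limma (1.26) and scaling to T cell markers (2.996). Without both young Treg 2 and aged Treg 1 the log2 fold changes were 1.599 for Cish and 1.74 for Socs2. Calls of that fit are not given. In aged over young Tconv, Cish was called by DESeq2 (1.27) and scaling to T cell markers (1.00). Terms for B cell (1.28), erythroid (1.37) and macrophage markers (1.19) also gave a call there. In Tconv labelled Dcaf1-deficient over young Tconv Cish was called by DESeq2 (1.20). Without both libraries Cish was at 1.26 in the aged and 1.18 in the labelled Tconv over young Tconv. Scaled to T cell markers, the median gene moved to 1.32 in Treg over Tconv labelled Dcaf1-deficient, where 6129 genes were then called. The scaled 2.86 of Cish and 2.996 of Socs2 thus include that move of the whole table. In aged over young Tconv the median gene moved to -0.27. A term for macrophage markers ended the call of Socs2 in aged Treg over aged Tconv (2.52).

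Uncalled differences that changed sign were, scaled to T cell markers, Il2ra (0.17), Socs2 (0.69) and Cish (0.72) in Treg labelled Dcaf1-deficient over young Treg, Socs2 in aged over young Tconv (-0.055), the label interaction of Il2ra (0.10) and the age interaction of Socs2 (0.28). The median gene of the scaled fit stood at 0.83, -0.27, 0.75 and 0.38 in these comparisons, in the same order. Each scaled value lay below that median where the main value was negative and above it where the main value was positive. Cish in Treg labelled Dcaf1-deficient over young Treg also did so with terms for B cell (0.23), erythroid (0.56) and macrophage markers (0.42), and Socs2 in aged over young Treg with terms for macrophage markers (-0.044) and the tag (-0.12) and without both libraries (-0.22). So did the age interaction of Il2ra under limma (-0.039), the tag (-0.045) and without both (-0.10), and Il2ra in Tconv labelled Dcaf1-deficient over young Tconv with the tag (-0.35).

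Leaving out 1 library at a time changed a call or a sign for these log2 fold changes, whose ranges were 3.55 to 3.98 for Il2ra and 1.42 to 1.70 for Cish in Treg over Tconv labelled Dcaf1-deficient, 2.46 to 3.03 for Socs2 and 1.603 to 2.753 for Cish in aged Treg over aged Tconv, 4.17 to 5.14 for Il2ra, 2.41 to 3.72 for Socs2 and 2.59 to 3.22 for Cish in young Treg over young Tconv, -0.46 to 0.13 for Socs2 and -0.46 to 0.16 for Cish in Treg labelled Dcaf1-deficient over young Treg. The ranges were also -0.23 to 0.36 for Socs2 and -0.058 to 1.09 for Cish in aged over young Treg, -0.35 to 0.63 for Il2ra in Tconv labelled Dcaf1-deficient over young Tconv, -0.80 to 0.18 for Il2ra, -0.30 to 1.02 for Socs2 and 1.19 to 1.36 for Cish in aged over young Tconv, -0.52 to 0.45 for Il2ra and -0.96 to 0.36 for Socs2 in the age interaction.

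With CD3 chain genes alone in place of the 10 markers, the log2 ratio of Cish was 0.50 in aged over young Treg, 0.85 in aged over young Tconv and 0.79 in Treg labelled Dcaf1-deficient over young Treg. Scaled to T cell markers, the median of all genes lay from -0.27 to 1.32 over the 10 comparisons, with 1.32 in Treg over Tconv labelled Dcaf1-deficient. Signs turned on leaving out young Treg 1 (Socs2 and Cish) or Treg labelled Dcaf1-deficient 2 (Socs2) in Treg labelled Dcaf1-deficient over young Treg, aged Treg 2 (Socs2 and Cish) or young Treg 2 (Socs2) in aged over young Treg, young Tconv 1 in Tconv labelled Dcaf1-deficient over young Tconv (Il2ra), and young Tconv 2 (Il2ra) or young Tconv 1 or aged Tconv 1 (Socs2) in aged over young Tconv. The age interaction turned without aged Tconv 2, aged Treg 2, young Tconv 2 or young Treg 2 for Il2ra and without aged Tconv 1, young Tconv 1 or young Treg 1 for Socs2. Where a range below ends in a percent, it is the DESeq2 count, made without the low-count filter, set over the 9495 genes tested. The upper ends for Treg labelled Dcaf1-deficient over young Treg and for the label interaction came from the fit without both young Treg 2 and aged Treg 1. In that fit young Treg and aged Treg keep 1 library each. The number of genes called over the whole table, with its range over all alternatives, was 211 (2 to 6129) in Treg over Tconv labelled Dcaf1-deficient, 78 (0 to 961) in aged Treg over aged Tconv, 76 (0 to 654) in young Treg over young Tconv, 0 (0 to 2219) in Treg labelled Dcaf1-deficient over young Treg, 0 (0 to 7.47% of genes) in aged over young Treg. It was 0 (0 to 1071) in Tconv labelled Dcaf1-deficient over young Tconv, 841 (0 to 2340) in aged over young Tconv, 0 (0 to 130) in the age interaction, 0 (0 to 10) in the label interaction, 2134 (223 to 7451) in all Treg over all Tconv.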
